A study of Mus musculus with 3 samples.

Results

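The secondary and tertiary granule genes of neutrophils were examined in mouse bone marrow (BM) during treatment with LECT2, a secreted chemotactic protein of the liver. The set holds 9 of the 17250 gene names in the deposited tables, namely Ltf, Camp, Ngp, Lcn2, Chi3l3, Cd177, Mmp8, Mmp9 and Retnlg. The members were looked up by their gene symbols, and all 9 were found. The BM came from C57BL/6 mice of 6 to 8 weeks, which the methods describe as male. Recombinant LECT2 was given under the skin at 300 μg per kg body weight once a day for 3 or 5 days, and the 0-day sample carries no injection label. Marrow was flushed from long bones and pelvis, and 1 poly(A) RNA-sequencing library stood for each time point. The number of mice behind a library and any vehicle treatment at 0 days are not given in the sources used here. The sources call the material flushed BM cells in one place and BM mononuclear cells in another, a preparation that would hold fewer mature neutrophils. Marrow was not sorted, so fewer cells of a type and less RNA per cell cannot be told apart. There were no replicates, so no difference between time points could be tested.

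Neutrophils pack their antimicrobial and matrix-degrading proteins into granules that are laid down in order as the cell matures. Primary granules form in promyelocytes, secondary granules in myelocytes and metamyelocytes, and tertiary granules in band cells. The transcripts of each class thus appear in turn, and those of the earlier classes fade again as the cell matures. C/EBP epsilon, a transcription factor of the CCAAT/enhancer-binding family, is required for the secondary granule genes. The members are described in this order: Ltf, Camp and Ngp of the myelocyte, Lcn2, Chi3l3 and Cd177 of the myelocyte and metamyelocyte, then Mmp8, Mmp9 and Retnlg, which are placed later. This order came from general knowledge. Mmp8 is also counted among secondary granule proteins, and Retnlg is a late transcript more than an established granule protein.

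Start-site sequences were available from RefSeq (GRCm38.p6) for 8 of the 9 members, all but Mmp9. Those of 4 members are printed because their later values span the set: Ngp had the highest level in every library, Chi3l3 had the smallest difference at 5 days, and Mmp8 and Retnlg had the deepest ones. Each run covers the 200 bases before the start site, 5′ to 3′. Capitals mark the C/EBP pattern TTNNGNAA on either strand. The Ngp run lies at chr9:110419608-110419807 on the plus strand, and the Chi3l3 run at chr3:106167565-106167764 on the minus strand. The Mmp8 run lies at chr9:7558229-7558428 on the plus strand, and the Retnlg run at chr16:48872408-48872607 on the plus strand.
Ngp: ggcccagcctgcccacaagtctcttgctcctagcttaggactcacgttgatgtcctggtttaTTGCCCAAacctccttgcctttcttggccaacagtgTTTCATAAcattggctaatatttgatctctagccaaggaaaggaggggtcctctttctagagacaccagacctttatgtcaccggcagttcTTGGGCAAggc
Chi3l3: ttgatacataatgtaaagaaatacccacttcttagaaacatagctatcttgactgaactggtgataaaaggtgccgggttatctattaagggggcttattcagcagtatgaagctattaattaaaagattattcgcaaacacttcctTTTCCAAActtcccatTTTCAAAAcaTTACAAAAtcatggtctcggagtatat
Mmp8: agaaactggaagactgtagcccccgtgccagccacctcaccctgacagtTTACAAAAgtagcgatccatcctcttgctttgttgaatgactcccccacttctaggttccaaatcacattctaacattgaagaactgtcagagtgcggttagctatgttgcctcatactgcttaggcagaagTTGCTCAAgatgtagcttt
Retnlg: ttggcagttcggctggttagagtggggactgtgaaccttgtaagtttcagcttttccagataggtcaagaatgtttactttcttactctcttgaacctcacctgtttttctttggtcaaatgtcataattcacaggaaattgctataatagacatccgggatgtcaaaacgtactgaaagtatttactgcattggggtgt

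The C/EBP pattern occurred 3 times before the start of Ngp and of Chi3l3, 2 times before Mmp8 and at no place before Retnlg. Among all 8 members with a sequence, 5 held it, Ltf and Cd177 with 1 match each besides these 3 genes. Of the 32817 RefSeq start-site windows of the same length, 30.0% held it. The ETS pattern GAGGAA occurred in Ltf, Lcn2 and Cd177, against 19.0% of all windows. The TATA pattern TATAAA occurred in Cd177, against 9.96%. The NF-kB pattern occurred in Ltf, Lcn2 and Cd177, against 41.4%, and its matches overlapped each other in Ltf and Cd177. None of the patterns occurred in Camp. A match describes the letters only. Chi3l3 and Mmp8, which both held the C/EBP pattern, had log2 ratios of −0.67 and −2.53 at 5 days.

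The libraries held 15146983 to 15523952 reads on genes, and every member had at least 3962 reads in each library. Expression is given as RPKM, reads scaled to the length of the transcript and to all reads on genes of the library. Differences are log2 ratios of RPKM + 0.1. The interval after a ratio is the exact 95% Clopper-Pearson interval from both read counts. It covers counting error only, since reads copied by PCR and not tagged by molecule are not independent. The comparisons of 3 days with 0 days, 5 days with 0 days and 5 days with 3 days share libraries and are therefore not independent of each other. A gene whose mean over the libraries reached 1 RPKM is called expressed. The median log2 ratio of the 11144 expressed genes was 0.10, 0.31 and 0.25 in these comparisons. TMM scaling, which centres the bulk of genes, brought these medians to 0.02, 0.01 and 0.03.

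The 9 granule genes took a large part of the marrow transcriptome, and that part was smaller at 5 days. They held 6.72% of the reads on genes at 0 days, with an exact binomial interval of 6.70% to 6.73%. The share was 5.89% at 3 days and 2.50% at 5 days. Their summed level was 61518 RPKM at 0 days, 49759 RPKM at 3 days and 20854 RPKM at 5 days, the last being 33.9% of the first. At 0 days 5 of the 10 genes with the highest RPKM were members, and at 5 days 3 were. The first 6 members by stage had 80.7% of their 0-day summed RPKM at 3 days and 37.6% at 5 days. The last 3 had 82.0% and 8.82%. Retnlg made up most of the later sum, with 6507 of 7877 RPKM at 0 days. At 3 days Retnlg was at 74.4% of its 0-day level, Mmp8 at 105% and Mmp9 at 158%.

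**Figure D1:**
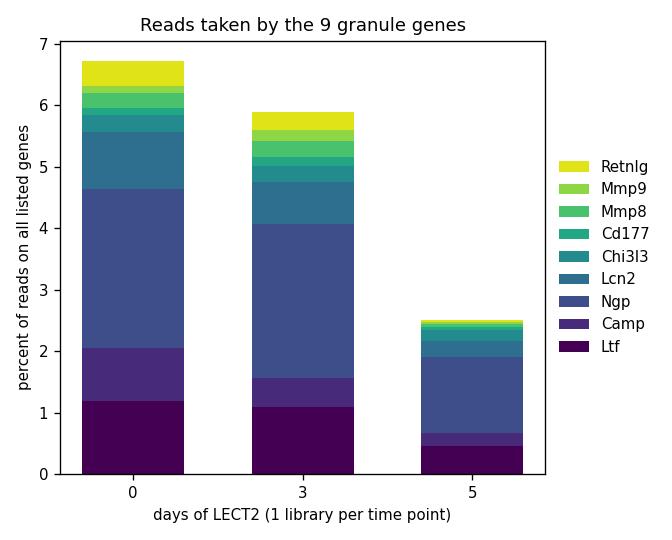
Reads on each of the 9 granule genes as a percent of all reads on listed genes (vertical axis, linear from 0), stacked, in the library of each time point (horizontal axis, days of LECT2, 1 library each). The stacks reach 6.72% at 0 days, 5.89% at 3 days and 2.50% at 5 days.

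Ltf encodes lactoferrin, the iron-binding protein that defines the secondary granule. Its level was 4360.3 RPKM at 0 days, 4009.7 RPKM at 3 days and 1686 RPKM at 5 days, from 185604, 166536 and 71719 reads. The log2 ratio was −0.12 at 3 days (−0.13 to −0.11) and −1.37 at 5 days (−1.38 to −1.36), both against 0 days. Nearly all of the difference lay between 3 and 5 days, where the log2 ratio was −1.25.

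Camp encodes the cathelicidin precursor, which is cleaved outside the cell to an antimicrobial peptide. Its level was 14235 RPKM at 0 days, 7762 RPKM at 3 days and 3609 RPKM at 5 days. Camp had the lowest 3-day ratio of the members, at 54.5% of its 0-day level and a log2 ratio of −0.87 (−0.89 to −0.86). At 5 days it stood at 25.4%, with a log2 ratio of −1.98 (−1.997 to −1.963). Among the 1115 genes of at most 1050 bases, to which Camp belongs, 166 had a lower log2 ratio at 3 days, and the median of that length class was −0.49.

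Ngp encodes neutrophilic granule protein, a cystatin-like protein of mouse secondary granules. Its level was 21998 RPKM at 0 days, 21281 RPKM at 3 days and 10391 RPKM at 5 days, the highest of the members each time. It was the third most abundant gene of the marrow at 0 and 3 days and ranked 2 at 5 days. The log2 ratio was −0.05 at 3 days (−0.05 to −0.04) and −1.08 at 5 days (−1.09 to −1.07). Ngp therefore lay just past the 2-fold line, and with the trend on gene length removed it came to −0.95.

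Lcn2 encodes lipocalin 2, which binds bacterial siderophores and so withholds iron. Its level was 10826 RPKM at 0 days, 8085 RPKM at 3 days and 3136 RPKM at 5 days. The log2 ratio was −0.42 at 3 days (−0.43 to −0.41) and −1.79 at 5 days (−1.80 to −1.77). Its 3-day log2 ratio lay 0.07 above the median of its length class.

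Chi3l3 encodes Ym1, a chitinase-like lectin made by neutrophil precursors in marrow and by some activated macrophages. Its level was 1792 RPKM at 0 days, 1676 RPKM at 3 days and 1127 RPKM at 5 days. At 5 days it kept 62.9% of its 0-day level, the most of any member, with a log2 ratio of −0.67 (−0.69 to −0.65). How reads shared with near-identical copies were assigned is not given in the sources used here. The paralog Chi3l4 was listed with 12, 9 and 4 reads.

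Cd177 encodes a GPI-anchored surface protein that is stored in secondary granules. Its level was 430.3 RPKM at 0 days, 487 RPKM at 3 days and 211 RPKM at 5 days. It was 1.13-fold higher at 3 days, a log2 ratio of 0.18 (0.15 to 0.21), and 2.04-fold lower at 5 days, a log2 ratio of −1.03 (−1.07 to −0.99). The counting interval at 5 days includes the 2-fold line.

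Mmp8 encodes neutrophil collagenase, which cleaves fibrillar collagen. Its level was 1017 RPKM at 0 days, 1064 RPKM at 3 days and 175 RPKM at 5 days, from 38720, 39534 and 6678 reads. The log2 ratio at 3 days was 0.07 (0.05 to 0.09), and it had the opposite sign, at −0.02, under TMM scaling. At 5 days the level was 17.3% of that at 0 days and the log2 ratio was −2.53 (−2.57 to −2.50).

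Mmp9 encodes gelatinase B, the marker enzyme of tertiary granules. Its level was 353 RPKM at 0 days, 556 RPKM at 3 days and 101 RPKM at 5 days. It was 1.58-fold higher at 3 days, a log2 ratio of 0.66 (0.63 to 0.68), which was the highest 3-day ratio of the set. At 5 days it was 3.50-fold lower than at 0 days and 5.51-fold lower than at 3 days, with log2 ratios of −1.81 and −2.46.

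Retnlg encodes resistin-like gamma, a secreted cysteine-rich protein found in late neutrophils of the mouse. Its level was 6507 RPKM at 0 days, 4839 RPKM at 3 days and 419 RPKM at 5 days, from 61621, 44714 and 3962 reads. It was 1.34-fold lower at 3 days and 15.5-fold lower at 5 days, with log2 ratios of −0.43 (−0.44 to −0.41) and −3.96 (−4.00 to −3.91). Its rank among all genes went from 8 at 0 days and 9 at 3 days to 140 at 5 days. Of the 11144 expressed genes, 24 had a lower log2 ratio at 5 days against 0 days. Between 5 and 3 days, of the 736 genes whose mean reached 100 RPKM, Retnlg itself included, 0 had a lower log2 ratio than Retnlg. The related genes Retnla, Retnlb and Retn had at most 20 reads in any library.

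**Figure D2:**
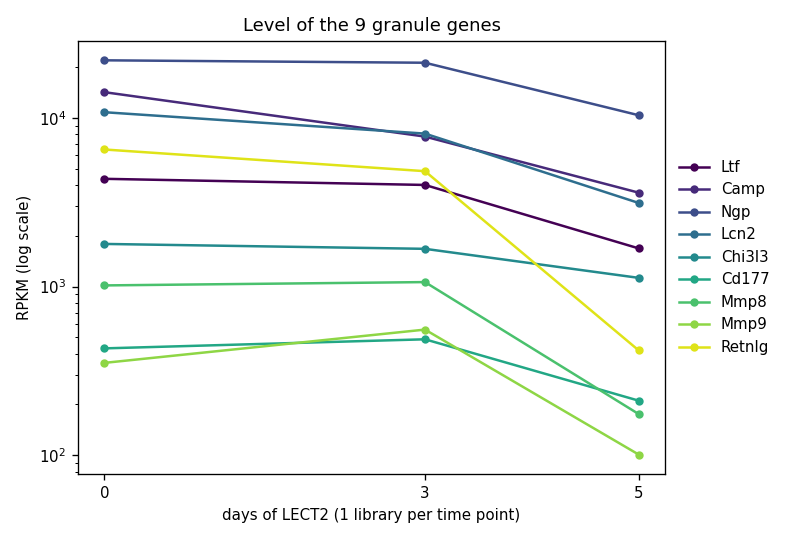
Level of each granule gene in RPKM (vertical log axis) against days of LECT2 (horizontal axis), 1 library per time point and 1 line per gene, from early (dark) to late (light) stage. The line of Retnlg runs from 6507 to 419 RPKM and crosses those of Ltf and Chi3l3 between 3 and 5 days.

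Counted by a 2-fold difference, most members were lower at 5 days and none at 3 days. Between 3 and 0 days none of the 9 members was at least 2-fold lower, against 2.41% of the 11325 genes with at least 1 RPKM in either library, and none was at least 2-fold higher, against 4.08%. Between 5 and 0 days 8 of 9 were at least 2-fold lower, against 5.91% of 11497 genes, and 0 of 9 were higher, against 15.5%. The exception was Chi3l3. Between 5 and 3 days the same 8 were at least 2-fold lower, against 3.45% of 11375 genes, and 0 of 9 were higher, against 1.95%. Among the 736 abundant genes just named, which share the range of the members, 15.8% were past 2-fold lower at 5 days against 0 days and 10.1% against 3 days. The median log2 ratio of the members was −0.10 at 3 days, −1.79 at 5 days and −1.25 between 5 and 3 days. Scaling changed the division of all genes into higher and lower. Of the genes with a 2-fold difference at 5 days, 72.4% were higher in deposited RPKM. TMM scaling made this 42.2%, and 9.92% of genes were then at least 2-fold lower. The shares higher were 62.9% and 49.7% at 3 days, and 36.1% and 11.9% between 5 and 3 days. Under TMM scaling the number of members at least 2-fold lower was again 8 in both comparisons with the 5-day library.

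**Figure D3:**
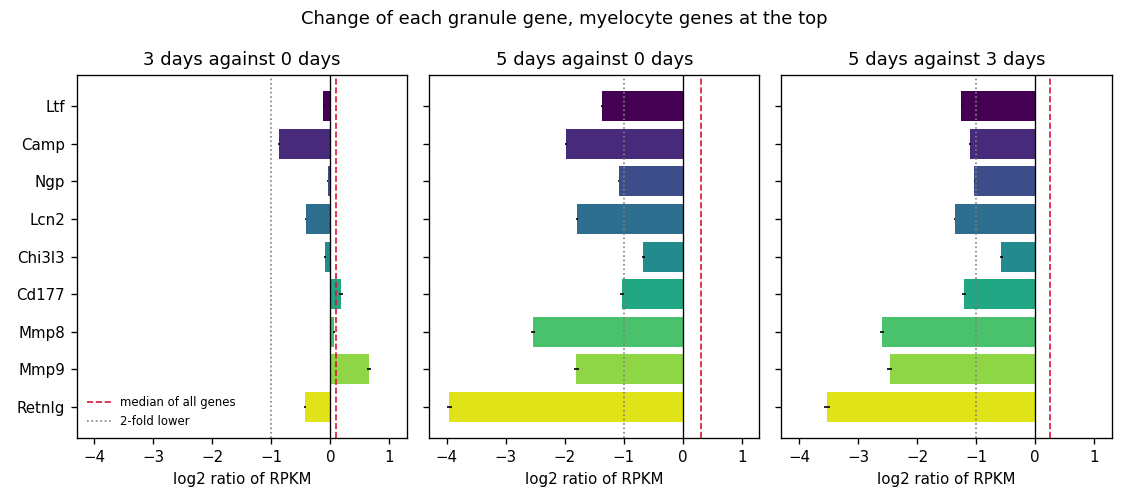
Log2 ratio of RPKM (horizontal axis) of each granule gene (vertical axis, in stage order) in the 3 comparisons, with the 95% counting interval as a black bar. The red dashed line is the median of all genes and the grey dotted line marks 2-fold lower, which 0, 8 and 8 of the 9 members passed.

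Between 5 and 3 days the members of later stages had the lower ratios. The first 6 members had log2 ratios from −1.37 (Lcn2) to −0.57 (Chi3l3), and the last 3 from −3.53 (Retnlg) to −2.46 (Mmp9), so the groups did not overlap. In this comparison 3.45% of all genes were at least 2-fold lower. The division between the groups was drawn with the values known, and is a description. Between 5 and 0 days the groups overlapped, since Camp at −1.98 lay below Mmp9 at −1.81. Between 3 and 0 days they overlapped as well, at −0.87 to 0.18 and −0.43 to 0.66. Of the members' summed RPKM, the last 3 made up 12.8% at 0 days, 12.98% at 3 days and 3.33% at 5 days.

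Genes of the stages on either side were read in the same way. The primary granule list, with 13 of its 14 genes expressed, had a median log2 ratio of 0.60 between 5 and 3 days, with 1 gene at least 2-fold higher, beside 1.95% of all genes, and none lower. That gene was Mpo, at a log2 ratio of 1.09, which came to 0.87 under TMM scaling, where the median of the list was 0.38. Mpo, the myeloperoxidase of the promyelocyte, was at 435 RPKM at 0 days, 581 RPKM at 3 days and 1237 RPKM at 5 days. Elane, neutrophil elastase, was at 1142 RPKM, 923 RPKM and 1451 RPKM. Prss34, a protease known from basophils and also placed on the eosinophil and basophil list, was at 435 RPKM, 345 RPKM and 397 RPKM. Cd63, a granule membrane protein named after its values were seen, went against the median of the list, at 289.8 RPKM, 211 RPKM and 159 RPKM. The mature neutrophil list, with 29 of 30 genes expressed, had a median of −1.95 between 5 and 3 days, with 23 genes at least 2-fold lower, beside 3.45% of all genes, and none higher. S100a9, a calcium-binding protein of mature neutrophils, was at 61729 RPKM at 0 days, 44195 RPKM at 3 days and 14032 RPKM at 5 days. S100a8, its partner, had log2 ratios of −0.26 at 3 days and −1.88 at 5 days. The medians of the first 6 and the last 3 members, −1.16 and −2.60, thus lay on either side of the mature list's median and below that of the primary granule list. Between 3 and 0 days the medians were −0.12 for the primary granule list and 0.17 for the mature neutrophil list. Those of the first 6 and the last 3 members lay between them, at −0.11 and 0.07. With the trend on gene length removed, the 2 lists were at 0.22 and 0.26, and the first 6 and last 3 members at 0.03 and 0.13.

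**Figure D4:**
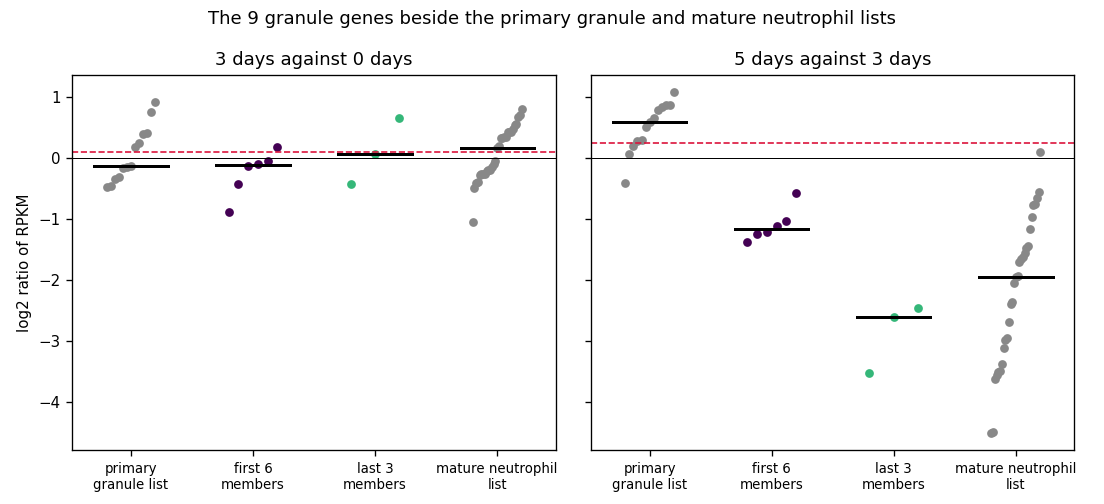
Log2 ratio of RPKM (vertical axis) of single genes (points) in 4 groups (horizontal axis), for 3 days against 0 days and 5 days against 3 days. Black bars are group medians and the red dashed line is the median of all genes. On the right the medians are 0.60, −1.16, −2.60 and −1.95 from left to right.

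At 3 days the ratios of the members followed gene length. Across the 9 members, which share the same libraries, Spearman's rho between transcript length and the log2 ratio at 3 days was 0.82, and after removal of the trend that all genes showed it was 0.23. The shortest members, Camp of 599 bases and Retnlg of 610 bases, were at −0.87 and −0.43, and the longest, Mmp9 of 3185 bases, was at 0.66. The same run was seen in all genes. Genes of at most 1050 bases had a median of −0.49 and genes of at least 5801 bases a median of 0.55. Set against genes of like length, Lcn2, Chi3l3, Cd177, Mmp8 and Retnlg lay between −0.02 and 0.07 log2 units from the median of their length class at 3 days. Relative to that median Camp was at −0.39 and Ltf at −0.28, and Ngp was at 0.23 and Mmp9 at 0.43. With the trend removed, the 3-day ratios of Ngp, Lcn2, Chi3l3 and Retnlg turned from below 0 to above 0, and the median of the members from −0.10 to 0.054. At 5 days against 0 days the class medians ran from −0.43 to 0.85, and rho was 0.33 before and −0.08 after removal of the trend. There Camp came from −1.98 to −1.43 and Ltf from −1.37 to −1.75. Between 5 and 3 days rho was −0.10 and the class medians spanned only 0.09 to 0.31. In that comparison Mmp8 was at −2.83, Mmp9 at −2.76 and Retnlg at −3.62 log2 units from the median of its length class, and the other 6 members at −1.53 to −0.80. Why the 3-day ratios followed length was not tested.

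**Figure D5:**
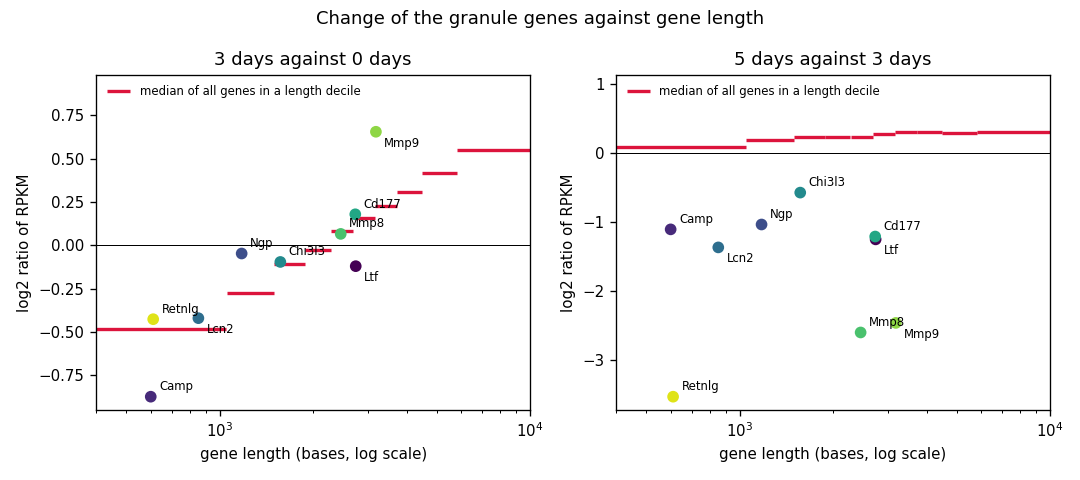
Log2 ratio of RPKM (vertical axis) of each granule gene against its length in bases (horizontal log axis), for 3 days against 0 days (left) and 5 days against 3 days (right). Red bars are the medians of all genes in 10 classes of length. On the left 5 members lie within 0.07 of their class, and on the right all 9 lie below.

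The order of the levels changed over the time points. At 0 days it was Ngp, Camp, Lcn2, Retnlg, Ltf, Chi3l3, Mmp8, Cd177 and Mmp9 in RPKM. At 3 days Lcn2 had passed Camp and Mmp9 had passed Cd177. At 5 days Retnlg stood below Ltf and Chi3l3, and the order ended with Cd177, Mmp8 and Mmp9. Each neighbouring pair differed by more than counting error in each library, the closest being Lcn2 and Camp at 3 days with a ratio of 1.04, and without replicates no more can be said of these steps. Ratios between members were steady for some pairs and not for others. Ngp was 5.05 times the level of Ltf at 0 days, 5.31 times at 3 days and 6.16 times at 5 days. Lcn2 was 30.7, 14.5 and 31.1 times the level of Mmp9. Ngp was 3.38 times the level of Retnlg at 0 days, 4.40 times at 3 days and 24.8 times at 5 days. Ltf against Camp was 0.306, 0.517 and 0.467. The level of Mmp9 relative to Mmp8 was 0.347, 0.523 and 0.575.

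Most other listed proteins of secondary and tertiary granules had lower levels in the 5-day library. Of 26 such expressed genes, 19 had a log2 ratio below 0 at 5 days against 0 days and 25 between 5 and 3 days. Of the 11144 expressed genes 3616 and 3015 did. Under TMM scaling, at 5 days against 0 days, 23 of the 26 and 5518 of the 11144 did. At 5 days against 0 days 8 were at least 2-fold lower, beside 5.91% of all genes, and 2 were at least 2-fold higher, beside 15.5%, with a median log2 ratio of −0.65. Between 5 and 3 days 11 were at least 2-fold lower, beside 3.45% of all genes, none was at least 2-fold higher, beside 1.95%, and the median was −0.76. Under TMM scaling 13 were at least 2-fold lower in each of these comparisons, beside 9.92% and 4.83% of all genes. At 3 days against 0 days 4 of the 26 were at least 2-fold higher, beside 4.08% of all genes. None was at least 2-fold lower at 3 days, beside 2.41%, and the median log2 ratio was 0.12. Lyz2, the lysozyme shared with monocytes, was at 3878 RPKM at 0 days, 5119.9 RPKM at 3 days and 3898 RPKM at 5 days. Pglyrp1, a peptidoglycan-binding protein, was at 1734 RPKM, 1207 RPKM and 479.9 RPKM. The transcript 1100001G20Rik, also named Wfdc21, was at 902 RPKM, 629 RPKM and 198 RPKM. Lyz2 at 5 days was thus level with 0 days, while the other 2 most abundant genes were more than 2-fold lower.

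Transcription factors known to act on granule genes were counted in the same way. Of 14 expressed regulators, none was at least 2-fold lower at 3 days, at 5 days (1 under TMM scaling) or between 5 and 3 days, beside 2.41%, 5.91% and 3.45% of all genes, and 2 were at least 2-fold higher at 5 days against 0 days, beside 15.5%, so that the count was near that over all genes. These were Rara and Cux1, named after their values were seen, at 1.19 and 1.00, and under TMM scaling they came to 0.88 and 0.70. Cebpe, which encodes C/EBP epsilon, was at 87.6 RPKM at 0 days, 97.6 RPKM at 3 days and 72.2 RPKM at 5 days, a log2 ratio of −0.28 at 5 days. Cebpa, the related factor of earlier granulocyte progenitors, was at 18.8 RPKM, 21.6 RPKM and 34.3 RPKM. Spi1, listed as Sfpi1 and encoding PU.1, was at 193 RPKM, 247 RPKM and 215 RPKM. Gfi1, a repressor needed for neutrophil maturation, had only 5, 12 and 15 reads. Irf8, Cebpb and Myb had log2 ratios of 0.63, −0.76 and 0.63 at 5 days.

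Of 17 expressed genes for granule packing and release, 1 was at least 2-fold lower and 1 at least 2-fold higher at 5 days against 0 days, beside 5.91% and 15.5% of all genes. Srgn, whose product serglycin is the proteoglycan core of granules, was the lower one, at 1911 RPKM at 0 days, 1362 RPKM at 3 days and 785 RPKM at 5 days. The higher one was Lyst, a regulator of lysosome and granule size named after its values were seen, at 3.13 RPKM, 14.8 RPKM and 16.3 RPKM and a log2 ratio of 2.34 at 5 days. Under TMM scaling 2 were lower, Vamp8 at −1.30 besides Srgn. At 5 days against 0 days, 3 of 11 expressed binding partners and inhibitors were at least 2-fold lower and 2 at least 2-fold higher. Over all genes these shares were 5.91% and 15.5%. The most abundant of the 11, Cap1, Prtn3 and Itgb2, had log2 ratios of 0.20, 0.67 and 0.01 at 5 days. Prtn3 encodes proteinase 3, which CD177 presents on the cell surface and which cleaves the cathelicidin precursor. The 3 lower genes, named after their values were seen, were Fpr2, a formyl peptide receptor that binds the cathelicidin peptide, and the metalloproteinase inhibitors Timp2 and Reck. Fpr2 was at 292 RPKM, 255 RPKM and 61.2 RPKM. Timp2 was at 25.9 RPKM, 30.5 RPKM and 9.65 RPKM, and Reck at 5.98 RPKM, 5.83 RPKM and 2.69 RPKM. The 2 higher genes, also named after their values were seen, were Lrp1 and P2rx7. Lrp1 was at 2.88 RPKM, 7.83 RPKM and 15.4 RPKM, and P2rx7 at 1.75 RPKM, 3.49 RPKM and 5.20 RPKM. The inhibitors Timp1 and Timp3 were not expressed, with 5, 3 and 4 reads and 21, 18 and 31 reads.

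Paralogs of the members went different ways. Plaur, of the same protein family as Cd177, was at 549.6 RPKM at 0 days, 325 RPKM at 3 days and 122 RPKM at 5 days. Chi3l1, related to Chi3l3, was at 305 RPKM, 303 RPKM and 97.7 RPKM. Trf, the transferrin related to lactoferrin, was at 39.1 RPKM, 42.2 RPKM and 44.4 RPKM. Of the metalloproteinases, Mmp25 was at 18.9 RPKM, 55.0 RPKM and 17.0 RPKM, with its highest level at 3 days as for Mmp9. Mmp13 and Mmp14 were within 2-fold at 5 days, with log2 ratios of −0.67 and 0.05, and Mmp19 was at 2.18. Of the 7 expressed paralogs, 2 were at least 2-fold lower at 5 days against 0 days, beside 5.91% of all genes, and 1 at least 2-fold higher, beside 15.5%.

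Beside the members, which stood at 33.9% of their 0-day sum at 5 days, the marker lists of mature neutrophils and of other marrow cells stood at 25.1% to 169%. The summed level of the mature neutrophil list was 97106 RPKM at 0 days, 74523 RPKM at 3 days and 24376 RPKM at 5 days, or 76.7% and 25.1% of the start. S100a9 and S100a8 made up most of this sum, at 61729 RPKM and 28717 RPKM at 0 days. The median log2 ratio of the 29 expressed genes of the list was 0.17 at 3 days and −1.88 at 5 days. All 30 genes of the list had reads in each library. The erythroid list of 14 genes, mostly globin by amount, stood at 79.5% and 36.1% of its 0-day sum, with 4 genes at least 2-fold lower at 5 days, beside 5.91% of all genes. The osteolineage and stroma list of 12 genes stood at 89.6% and 37.4%. At 5 days 8 of its 9 expressed genes were at least 2-fold lower, beside 5.91% of all genes. The monocyte and macrophage list of 15 genes stood at 127% and 169%, with 7 genes at least 2-fold higher at 5 days, beside 15.5% of all genes. Under TMM scaling 5 were, beside 7.24%. The primary granule list of 14 genes, of which Bpi had no read at 3 days, stood at 93.4% and 144%. The lists of eosinophils and basophils (10 genes), B cells (14), T and NK cells (15), megakaryocytes (10) and stem and progenitor cells (12) stood at 102%, 75.5%, 78.5%, 92.7% and 119% at 5 days, and no marker in them was without reads. In the same order, the median log2 ratios of these lists were −0.18, −0.61, −0.83, −0.36 and −0.23 at 5 days under TMM scaling. The median of all expressed genes was 0.31 in deposited RPKM, from which the sums were taken, and 0.01 under TMM scaling. The part of these marker levels in the values of the granule genes was not tested.

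The non-member genes whose 3-day and 5-day ratios lay nearest to the medians of the members, among 6160 genes whose mean reached 10 RPKM, were Osm, Ccno, Nr4a1, Sepn1, Ets2, Gp49a, Crispld2, Chi3l1, S100a8 and Ifitm6. Their distances on the log2 scale were 0.11 to 0.19, over 2 ratios from 3 libraries. Osm, the cytokine oncostatin M, was nearest, at 279 RPKM at 0 days, 281 RPKM at 3 days and 78.8 RPKM at 5 days. Crispld2 and Chi3l1 were also on the list of other granule proteins, and S100a8 and Ifitm6 on that of mature neutrophils.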

How the data were processed

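Poly(A) RNA of mouse BM was measured after 0, 3 or 5 days of LECT2. Each time point had 1 library, and libraries were grouped by the sample labels. Per the methods, the authors quantified expression with Cufflinks on libraries of the TruSeq kit, and the submitters' processing notes name the mm8 build. The aligner is not given in the sources used here. The 3 deposited tables hold whole-number read counts per gene and RPKM, which the authors computed from these counts, gene length and the reads on all listed genes. Recomputing RPKM this way, to a relative tolerance of 1e-06, missed the deposited value for 18 entries of the 0-day and 14 of the 3-day library, with at most 36 reads each and no member among them. The authors' log2 ratios, p-values and false discovery rates, also in the deposited tables, compare 2 libraries and were not used. Reads on genes came to 15523952 (0 days), 15146983 (3 days) and 15514673 (5 days). No per-sample column was left unmapped.

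A repeated name was represented by its most abundant row. Genes without reads, listed at a small positive RPKM, were set to 0. Ratios were log2(RPKM + 0.1), which understates differences of low genes. Genes past 2-fold were counted where either library reached 1 RPKM. With 1 library per time point no test was made. Alternatives were pseudocounts of 1 and 0.01, TMM scaling (edgeR), median-of-ratios scaling (DESeq2), scaling without the 100 most abundant genes, summed rows, a minimum of 5 RPKM or none, a 4-fold threshold, and removal of the lowess trend on gene length (span 0.3). Counts by these steps were run on simulated reads with counting error only. The simulation held no length trend and no spread between mice, so it cannot speak to either. The 9 members, the gene lists and the alternatives were chosen with earlier results of these data known. The rule for named genes took all members, the 3 most abundant of a list, paralogs of at least 1 RPKM, 4 regulators (Cebpe, Cebpa, Spi1 and Gfi1) and the 10 nearest genes, and those of the marker and packing lists are not all printed. Other genes were named outside this rule, after their values were seen: Cd63, Rara, Cux1, Myb, Lyst, Fpr2, Timp2, Reck, Lrp1 and P2rx7. So were the neighbours Ccrl2, Ceacam10 and Cdc25a, and, for their few reads, Chi3l4, Retn, Retnla, Retnlb, Timp1, Timp3 and Bpi. Motifs were searched in RefSeq start-site sequences of GRCm38.p6, and neighbouring genes were taken in the order of that assembly. Python 3.11.15, pandas 2.3.3, numpy 2.4.6, scipy 1.17.1 and statsmodels 0.14.6 were used.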

Additional observations from a re-analysis of the deposited data

Results flagged for a closer look

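Cd177, Mmp8 and Mmp9 were higher at 3 days and lower at 5 days, both against the same 0-day library. The log2 ratio of Cd177 was 0.18 at 3 days and −1.03 at 5 days. Its 3-day value came to 0.095 under TMM, 0.099 under median-of-ratios and 0.082 under top-gene scaling, and to 0.054 with the length trend removed. That of Mmp8 was 0.065 at 3 days and −2.53 at 5 days, and its 3-day value was below 0 under TMM, median-of-ratios and top-gene scaling and with the length trend removed. That of Mmp9 was 0.66 at 3 days and −1.81 at 5 days, and its 3-day value under these 4 alternatives was 0.46 to 0.58. With 1 library per time point the difference between the time points was not tested.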

How the results depend on the processing

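The number of members at least 2-fold lower was 0 at 3 days under each scaling, both pseudocounts, the sum of all rows, removal of the length trend and the 4-fold threshold. It was 8 at 5 days and between 5 and 3 days under each scaling, both pseudocounts and the sum of all rows. With the length trend removed it was 7 at 5 days, where Ngp was lost. With a 4-fold threshold it was 2 at 5 days and 3 between 5 and 3 days. With scaling by TMM, by median-of-ratios and by the reads outside the 100 top genes, and with removal of the length trend, in this order, the median log2 ratio of the members was −0.18, −0.18, −0.19 and 0.054 at 3 days. It was −2.10, −2.08, −1.99 and −1.46 at 5 days, and −1.47, −1.47, −1.36 and −1.50 between 5 and 3 days. Under the same 4 alternatives the 3-day ratio of Mmp8 was −0.019, −0.014, −0.031 and −0.0075. With the length trend removed the 3-day ratios were 0.25 for Ngp, 0.015 for Lcn2, 0.064 for Chi3l3 and 0.13 for Retnlg. Both pseudocounts and the sum of all rows left each of the 27 ratios of the members within counting error. The first 6 and last 3 members were apart between 5 and 3 days under each alternative, and at 5 days against 0 days only with the length trend removed.

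Counts over all genes depended more on the settings. At 3 days the 273 lower and 462 higher genes became 120 and 190 with a pseudocount of 1, 118 and 236 with a minimum of 5 RPKM, 688 and 830 with no minimum, and 33 and 36 at 4-fold, and 293 were higher with the length trend removed. At 5 days the 680 lower genes became 1141 under TMM, 1117 under median-of-ratios scaling, 421 with a minimum of 5 RPKM, 1180 with no minimum and 186 at 4-fold. The 1786 higher genes became 1140 with a pseudocount of 1, 832 and 862 by TMM and median-of-ratios, 1114 without the top 100, 581 with the length trend removed and 153 at 4-fold. Between 5 and 3 days the 393 lower genes became 258 with a minimum of 5 RPKM, 717 with no minimum and 105 at 4-fold. The 222 higher genes became 52 with a pseudocount of 1, 74 and 76 by TMM and median-of-ratios, 125 without the top 100, 75 with the length trend removed, 94 and 578 with a minimum of 5 RPKM and none, and 13 at 4-fold. The cause was not tested. No paired analysis was possible because there was 1 library per time point, and no library could be left out for the same reason. Depth did not limit the members, whose counting intervals spanned at most 0.1 log2 units, but the spread between mice is unknown.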

Other observations

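Genes next to the members on the chromosome were read for comparison. Of the 36 protein-coding genes that lie within 2 places of a member in the RefSeq order of GRCm38.p6, 29 were in the tables and 19 were expressed, with a mean of 1 RPKM or more. Of these 19, 4 were at least 2-fold lower and 4 at least 2-fold higher at 5 days against 0 days, with a median log2 ratio of 0.67. Over all genes these shares were 5.91% lower and 15.5% higher, and the median of the expressed genes was 0.31. The members Ltf, Camp, Ngp and Mmp8 all lie on chromosome 9. Ccrl2, a chemerin-binding receptor next to Ltf, was at 79.8 RPKM at 0 days, 69.1 RPKM at 3 days and 13.3 RPKM at 5 days. Ceacam10, next to Cd177 and itself listed among granule proteins, was at 78.9 RPKM, 71.3 RPKM and 11.4 RPKM. Cdc25a, a cell cycle phosphatase next to Camp, was at 14.5 RPKM, 18.1 RPKM and 27.6 RPKM. These 3 genes were picked after their values were seen.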
